A study of Mus musculus with 7 samples.

Results

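The proteasome is the protease complex that degrades ubiquitin-tagged proteins. Its genes were taken here as all array probes whose gene symbol in the platform annotation is Psma, Psmb, Psmc, Psmd, Psme, Psmf or Psmg followed by a digit, which 67 of the 25697 probes met. Of these, 3 probes belong to Psmc3ip and Psme3ip1, which encode proteins that bind a subunit or an activator and are not part of the complex. The other 64 probes stand for 43 genes, and 56 of them, for 40 genes, were bright enough to be tested. The signal came from Illumina bead arrays of hypothalamus RNA from 13-week-old male mice on a C57BL/6 background, all labelled as BGN knockout, so that no array shows the proteasome genes with biglycan present. The untreated group held 2 arrays, numbered 1 and 3, of mice labelled as untreated controls. The DHA group held 5 arrays (replicates 1 to 5) of mice kept about 6 weeks on chow to which flaxseed oil (0.5%) and capsule oil rich in docosahexaenoic acid, the omega-3 fatty acid DHA, (1.2%) had been added. No group received flaxseed oil alone or another oil, and "with DHA" below means this diet. The labels do not say whether each array was made from its own animal, so the p-values measure the spread between these samples, which may be technical.

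The core particle of the proteasome is a barrel of stacked rings. The outer rings are made of alpha subunits (Psma genes) and gate the barrel. The inner rings are made of beta subunits (Psmb genes), of which Psmb5, Psmb6 and Psmb7 cut proteins. In cells exposed to interferon gamma these are replaced by Psmb8, Psmb9 and Psmb10, which give the immunoproteasome and favour peptides that fit major histocompatibility complex (MHC) class I molecules. A regulatory particle caps the barrel: its base holds a ring of ATPases (Psmc genes) that unfold the substrate, and its lid (Psmd genes) removes ubiquitin. The Psme genes encode other activators that bind the same ends, and the Psmg genes encode chaperones that assemble the core. Neurons depend on the constitutive form for turnover of synaptic proteins, while in brain the immunoproteasome is known mainly from microglia and other immune cells.

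The sequences just upstream of 3 of these genes are printed as examples and do not stand for the constitutive or the immune form. Psmb5 and Psmb8 encode the constitutive and the immune version of the same catalytic position, and Psmb9 marks the immunoproteasome together with Psmb8. Each run is the 250 bases before the gene start in RefSeq on GRCm38.p6, read 5′ to 3′ on the gene's strand, with capitals for a motif match on either strand. In Psmb5 the capitals are the core of the antioxidant response element, TGACNNNGC, bound by the factors Nfe2l1 and Nfe2l2. In Psmb8 they are the core of the interferon gamma-activated site, TTCNNNGAA, and in Psmb9 a CCAAT box, read on the other strand.
Psmb5, chr14:54617996-54618245, minus strand: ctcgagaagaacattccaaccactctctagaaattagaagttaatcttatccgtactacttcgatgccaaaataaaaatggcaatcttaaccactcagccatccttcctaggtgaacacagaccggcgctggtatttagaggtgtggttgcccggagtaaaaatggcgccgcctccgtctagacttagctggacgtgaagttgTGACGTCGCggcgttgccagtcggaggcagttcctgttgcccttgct
Psmb8, chr17:34197945-34198194, plus strand: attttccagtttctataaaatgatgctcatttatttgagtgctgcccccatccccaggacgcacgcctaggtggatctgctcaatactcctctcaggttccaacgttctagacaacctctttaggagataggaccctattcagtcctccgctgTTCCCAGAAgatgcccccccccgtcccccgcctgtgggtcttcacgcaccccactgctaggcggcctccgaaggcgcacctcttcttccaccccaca
Psmb9, chr17:34187331-34187580, minus strand: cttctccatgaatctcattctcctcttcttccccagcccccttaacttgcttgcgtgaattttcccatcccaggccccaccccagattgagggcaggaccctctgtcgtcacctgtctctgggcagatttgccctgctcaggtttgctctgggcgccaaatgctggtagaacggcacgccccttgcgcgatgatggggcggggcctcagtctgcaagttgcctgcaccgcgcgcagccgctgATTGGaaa
Such windows were found for 37 of the 43 genes. The antioxidant response element core was present in 5 of the 37 (13.5%), against 11.5% of all 27025 genes with a window. The interferon gamma-activated site core was present in 2 of them (5.41%, against 8.13%), Psmb8 and Psmg1. The core of the interferon-stimulated response element, GAAA, any 2 bases and GAAA again, was present in 3 (8.11%, against 3.46%), Psmb3, Psmd4 and Psmd9, and the CCAAT box in 13 (35.1%, against 37.5%). These matches overlapped no other match in the printed windows and are letters only, not evidence of binding. The window of Psmb10, the remaining immune subunit, held none of the motifs searched. Psmb8 and Psmb9 lie close together on chromosome 17, at 34198195 to 34201454 and 34182030 to 34187330.

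Between 13873 and 14534 probes per array had a detection p under 0.05, the chance of such a signal from a negative control. The untreated arrays had fewer, 13970 and 13873 in replicates 1 and 3, against 14251 to 14534 with DHA. Median unnormalized signals reached 167.4 and 173.2 without DHA and 174.5 to 189.5 with it. Quantile normalization gives all arrays the same distribution. The Bgn probe was detected in all 7 arrays, at 8.70 and 8.39 log2 in untreated replicates 1 and 3 and 8.02 to 8.30 with DHA. The labels do not say whether this probe lies inside the deletion, so it checks nothing about the genotype. Of 16 hypothalamic marker genes on the array, 13 were detected in at least 2 arrays, the orexin gene Hcrt and the oxytocin gene Oxt among them, and Crh, Otp and Sim1 were not.

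Proteasome genes differed little between the diets. Of the 40 tested genes, 36 differed by less than 0.3 log2 between the group means, and the median absolute difference was 0.087, against 0.13 over all tested probes and 0.081 over the tested probes at least as bright as the dimmest constitutive core subunit. No subunit probe passed the test: 0 of 56 had a limma adjusted p under 0.05 (smallest 0.293), beside 0 of 15284 probes overall (0%). At an unadjusted p under 0.05 there were 7 of 56 subunit probes (12.5%), 2 higher and 5 lower with DHA. Of all tested probes, 10.2% met this threshold, 5.17% higher and 5.07% lower with DHA. In either direction the share was 5.65% of the 3170 probes at least as bright as the dimmest constitutive core subunit. The 7 are not matched to that set: those of Psmc6, Psmd6, Psmd11 and Psme2 averaged 5.07 to 8.60 log2, below its cut of 10.17. With 2 and 5 arrays each value has limited precision, but for 34 of the 40 genes the 95% interval of the difference lay within 0.5 log2 of 0. A p above the threshold does not show that the groups were alike.

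Small differences below 0 were the more common direction. Of the 40 genes, taking the brightest probe of each, 28 were lower and 12 higher with DHA, and the median was -0.06 log2, against -0.01 for all tested probes. By probe, 41 of 56 (73.2%) were lower, against 53% of all tested probes and 52.2% of these 3170 bright ones. All 5 DHA arrays lay below both untreated arrays for 15 of the 56 probes. That is 26.8%, against 9.06% of all tested probes and 11% of the 3170 bright ones. The DHA arrays all lay above both untreated arrays for 1 probe (1.79%, against 7.89% of all tested probes). Several of these 15 are probes of one gene, and the comparison rests on 2 untreated arrays. The 56 probes are not matched in brightness to the 3170, since some averaged below the cut of 10.17 log2.

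**Figure D1:**
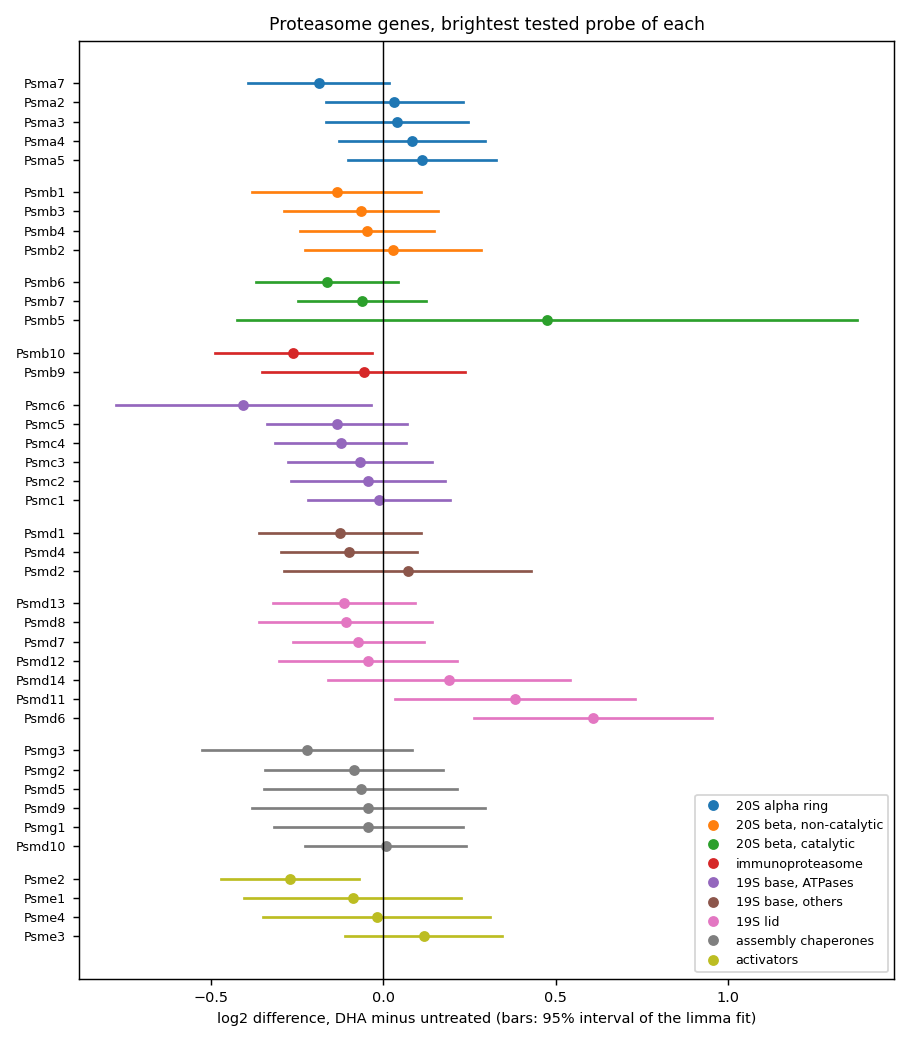
Log2 difference, DHA minus untreated, of the brightest tested probe of each of the 40 proteasome genes (x axis), grouped and coloured by class, with bars for the 95% interval of the limma fit. Most points lie between -0.3 and 0.3, all 6 ATPase genes lie below 0, and Psmb5 has by far the widest interval.

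Untreated replicate 3 held the highest value for more subunits than any other array, 15 of 40. In that array 33 of the 40 genes were above their mean over the 7 arrays, with a median deviation of 0.08 log2. The mean of a list of meningeal marker genes was lowest in the same array, at 7.26 log2 against 8.12 to 9.28 in the other 6, and its part in these values was not tested. The other untreated array, replicate 1, had 22 genes above and 18 below, with a median deviation of 0.01. The DHA arrays had median deviations from -0.03 to 0.0002, with 17 to 20 of the 40 genes above their mean. Without this array the median difference of the subunits was -0.02 with 24 of 40 genes lower, and without untreated replicate 1 it was -0.09 with 31 lower. Under median scaling of the arrays in place of quantile normalization, the median was -0.10 and 33 of 40 genes were lower.

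**Figure D2:**
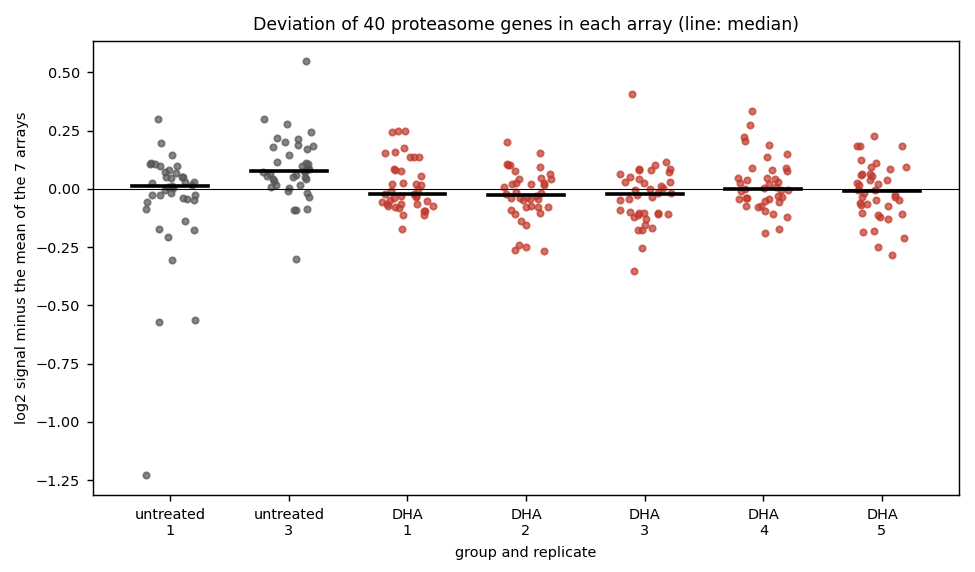
Deviation of each of the 40 proteasome genes from its own mean over the 7 arrays (y axis, log2), by array (x axis; grey untreated, red DHA), with a line at the median. Untreated replicate 3 has the highest median, 0.08, and the lowest single point is Psmb5 in untreated replicate 1.

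In the alpha ring most genes differed by little. Of its 5 tested genes, 4 were higher and 1 lower with DHA, with a median of 0.04 log2 and a range from -0.19 to 0.11. Psma7, the alpha subunit with the smallest p, had 11.75 and 11.83 log2 in untreated replicates 1 and 3 and, in the same order 1 to 5, 11.56, 11.61, 11.53, 11.62 and 11.70 with DHA. All 5 DHA values lay below both untreated values, by a mean of -0.19 (SE 0.09, limma adjusted p 0.522), and its other probe differed by -0.18. Psma2, Psma3, Psma4 and Psma5 differed by 0.03, 0.04, 0.08 and 0.11 and their groups overlapped. The single probes of Psma1 and Psma6, which encode obligate ring members, were not detected on any array and give no level for these genes. A second probe of Psma3 was likewise not detected, although its bright probe read 13.2 log2 on average.

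The beta subunits that do not cut, Psmb1 to Psmb4, were similarly flat, with a median of -0.06 and a range from -0.14 to 0.03. Psmb1 had the smallest p of these, at 12.68 and 12.77 log2 in the untreated arrays and 12.60, 12.39, 12.62, 12.64 and 12.69 with DHA. The groups overlapped, and the difference was -0.14 (SE 0.11, limma adjusted p 0.691). Psmb2, Psmb3 and Psmb4 differed by 0.03, -0.07 and -0.05.

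Among the constitutive catalytic subunits, Psmb6 and Psmb7 were slightly lower with DHA and Psmb5 differed between the 2 untreated arrays. Psmb6, which cuts after acidic residues, read 12.50 and 12.64 log2 in the untreated arrays and 12.39, 12.48, 12.35, 12.45 and 12.38 with DHA. The groups did not overlap, and the difference was -0.16 (SE 0.09, limma adjusted p 0.557). Psmb7, which cuts after basic residues, read 12.97 and 13.03 against 12.95, 12.91, 12.93, 12.95 and 12.95. These groups did not overlap either, but the difference was only -0.06 (SE 0.08, limma adjusted p 0.811), and 2 dimmer probes of Psmb7 differed by -0.09 and -0.03 with overlapping groups.

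Psmb5, the chymotrypsin-like subunit and the main target of proteasome inhibitors, stood apart in untreated replicate 1. It read 8.95 log2 there, 10.72 in untreated replicate 3, and 10.42, 10.16, 10.26, 10.45 and 10.26 in the DHA arrays. The unnormalized signal was 576.1 in untreated replicate 1 and 1278 to 1737 in the other 6 arrays. The difference over all arrays was 0.48 (SE 0.39, limma adjusted p 0.705). It turned to -0.41 without untreated replicate 1 and was 1.36 without untreated replicate 3 (limma adjusted p 0.114), so its sign depends on which untreated array is kept. The array holds 1 probe for Psmb5, and no second probe can be set beside it.

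Of the immunoproteasome subunits, Psmb10 was lower with DHA on both of its probes, Psmb9 overlapped between the groups and Psmb8 was near background. Psmb10 had 11.32 and 11.30 log2 in the untreated arrays and 10.95, 11.16, 10.96, 11.03 and 11.14 with DHA on its brighter probe. All DHA values were below both untreated values, a difference of -0.26 (SE 0.10, 0.83-fold, unadjusted p 0.0296, limma adjusted p 0.447). The second probe gave 11.22 and 11.17 against 10.91, 11.07, 10.99, 11.13 and 11.10, again without overlap, with a difference of -0.15 (SE 0.09, limma adjusted p 0.607). Over the alternatives tried, the brighter probe differed by -0.36 to -0.24.

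Psmb9, one of the inducible catalytic subunits, was detected in all 7 arrays. It read 6.61 and 6.64 log2 in the untreated arrays and 6.53, 6.74, 6.66, 6.61 and 6.30 with DHA. The DHA values lay on both sides of the untreated ones, and the difference of -0.06 (SE 0.13, limma adjusted p 0.897) was smaller than the SD of 0.17 among the DHA arrays. Psmb8 was at the edge of detection and was not tested. Before normalization its signal read 152.2 and 168.2 without DHA and 152.5, 163.2, 154.7, 162.6 and 161.5 with DHA. It was detected in untreated replicate 3 and in no other array, and the main fit gives no difference for it.

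**Figure D3:**
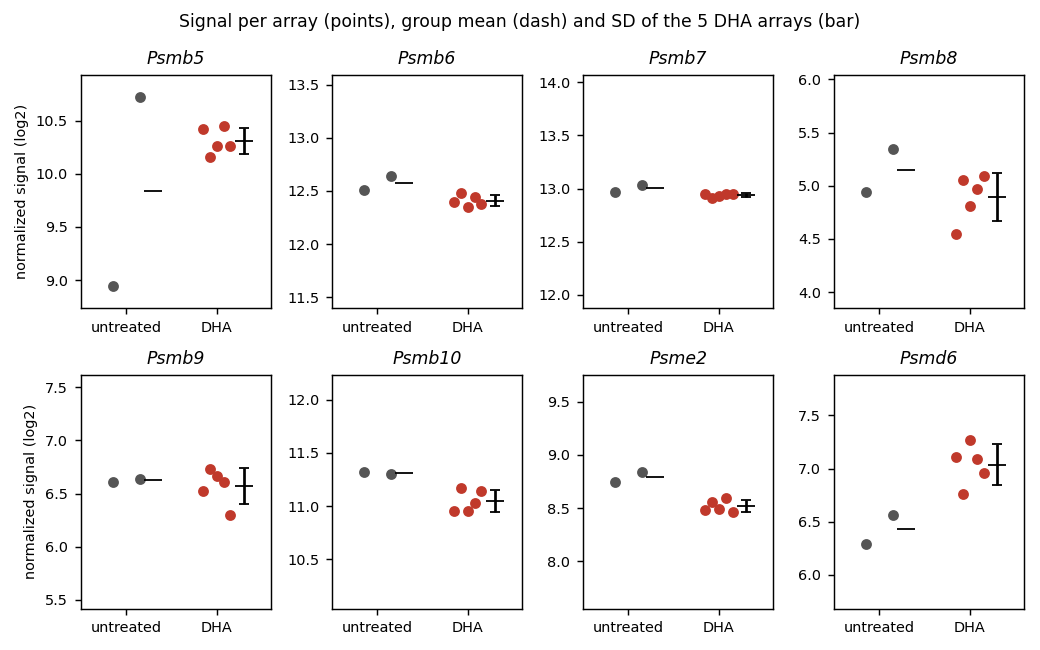
Normalized signal per array (y axis, log2; all panels span the same number of log2 units, each around its own level) of the constitutive catalytic subunits, the immunoproteasome subunits, Psme2 and the brighter Psmd6 probe, by group (x axis), with a dash for the group mean and a bar for the SD of the 5 DHA arrays. The groups do not overlap for Psmb6, Psmb7, Psmb10, Psme2 and Psmd6, while Psmb5 has 1 low untreated array and Psmb8 lies near background.

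Among the activators, Psme2 was the one whose groups did not overlap. Psme1 and Psme2 encode the activator that interferon gamma induces together with the immune subunits. Psme2 read 8.74 and 8.84 log2 in the untreated arrays and 8.49, 8.56, 8.50, 8.59 and 8.47 with DHA. The groups did not overlap, and the difference was -0.27 (SE 0.09, 0.83-fold, unadjusted p 0.0142, limma adjusted p 0.371). Its partner Psme1 differed by -0.09 and -0.10 on 2 probes, with overlapping groups. Psme3, the nuclear activator, differed by 0.12 and Psme4, an activator tied to histone degradation, by -0.02.

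All 6 ATPases of the base were lower with DHA, with a median of -0.10 log2, but 5 of them by less than 0.14. For Psmc5 the dimmer of 2 probes read 12.48 and 12.44 log2 in the untreated arrays and 12.30, 12.18, 12.19, 12.21 and 12.31 with DHA. The groups did not overlap, with a difference of -0.22 (SE 0.09, unadjusted p 0.0345, limma adjusted p 0.454), and the brighter probe differed by -0.13. Psmc4 differed by -0.12, also without overlap. Psmc6 had the largest difference, -0.41 (SE 0.16, limma adjusted p 0.455), but its probe was dim: it read 5.37 and 5.35 log2 in the untreated arrays and 5.20, 4.82, 4.71, 5.20 and 4.82 with DHA, and was detected in both untreated arrays and 2 of 5 DHA arrays. On the authors' normalized values, which keep the background, the Psmc6 difference was -0.11. Psmc1, Psmc2 and Psmc3 differed by -0.01, -0.04 and -0.07.

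The other base subunits are the scaffolds Psmd1 and Psmd2 and the ubiquitin receptor Psmd4. Psmd1 had the smallest p, at 9.29 and 9.55 log2 in the untreated arrays and 9.35, 9.34, 9.31, 9.25 and 9.21 with DHA, a difference of -0.13 (SE 0.10, limma adjusted p 0.703) with overlapping groups. It was 0.005 without untreated replicate 3. Psmd4 differed by -0.10. The 2 probes of Psmd2 differed by 0.07 and -0.25, the second one dim and detected in 6 of the 7 arrays.

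The lid held the value furthest above 0, that of Psmd6, which the second probe of the gene did not share. Psmd6, a structural lid subunit, read 6.29 and 6.56 log2 in the untreated arrays and 7.11, 6.76, 7.27, 7.09 and 6.96 with DHA on its brighter probe. All DHA values were above both untreated values, a difference of 0.61 (SE 0.15, 1.53-fold, unadjusted p 0.00365, limma adjusted p 0.293), the smallest p of any subunit probe. The dimmer probe of Psmd6 ran the other way, at 5.82 and 5.57 against 5.35, 5.54, 4.97, 5.32 and 4.93, a difference of -0.47 (SE 0.18, limma adjusted p 0.452), again without overlap. That probe was detected in both untreated arrays and 3 of 5 DHA arrays. On the authors' normalized values the differences were 0.27 and -0.13, so the direction of each probe was kept and the gene has no single direction in these data.

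Psmd11, a lid subunit, had 7.85 and 8.43 log2 in the untreated arrays and 8.55, 8.52, 8.53, 8.42 and 8.60 with DHA. The groups overlapped, since untreated replicate 3 lay within the DHA range, and the difference of 0.38 (SE 0.15, unadjusted p 0.0357, limma adjusted p 0.459) was 0.09 without untreated replicate 1 and 0.67 without untreated replicate 3. A dimmer probe of Psmd11 differed by 0.01. Psmd14, the deubiquitinase of the lid, differed by 0.19 with overlapping groups. The other lid genes, Psmd7, Psmd8, Psmd12 and Psmd13, lay between -0.12 and -0.04.

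Assembly chaperones differed by little. Of 6 tested genes 5 were lower and 1 higher, with a median of -0.05 and a range from -0.22 to 0.01. Psmg3, a chaperone of core assembly, had the smallest p, at 9.42 and 9.70 log2 against 9.33, 9.33, 9.23, 9.23 and 9.59, a difference of -0.22 (SE 0.13, limma adjusted p 0.593). The groups overlapped through DHA replicate 5, and without untreated replicate 3 the difference was -0.08. Psmg1 and Psmg2 of the same family and Psmd5, Psmd9 and Psmd10, which chaperone the ATPase ring, lay between -0.09 and 0.01. The 3 probes of Psmc3ip and Psme3ip1, which are not subunits, differed by -0.06, 0.01 and -0.03.

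Side by side, the constitutive core had a median difference of -0.01 log2 over 12 genes, of which 6 were higher and 6 lower. The regulatory particle had a median of -0.07 over 16 genes, with 12 lower, and without untreated replicate 3 its median was -0.01. The tested immunoproteasome subunits, Psmb9 and Psmb10, had a median of -0.16, with both lower. No test of the differences between these classes was made. The core median was -0.09 without untreated replicate 1 and -0.11 under median scaling. The immunoproteasome median lay between -0.19 and -0.13 over all 16 alternatives, but it is that of only 2 genes. The brighter Psmb10 probe ranged from -0.36 to -0.24 over the alternatives, while Psmb9 ranged from -0.10 to 0.01.

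Probes of the same gene gave a check on single values. Of 14 genes with at least 2 tested probes, 10 had all probes on the same side of 0. The others were Psmd2, Psmd6, Psmd10 and Psmd12. The probes of one gene lay more than 0.3 log2 apart for 3 genes, Psmd2, Psmd6 and Psmd11. In each of these 3 genes one probe was dim and was not detected in every array.

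**Figure D4:**
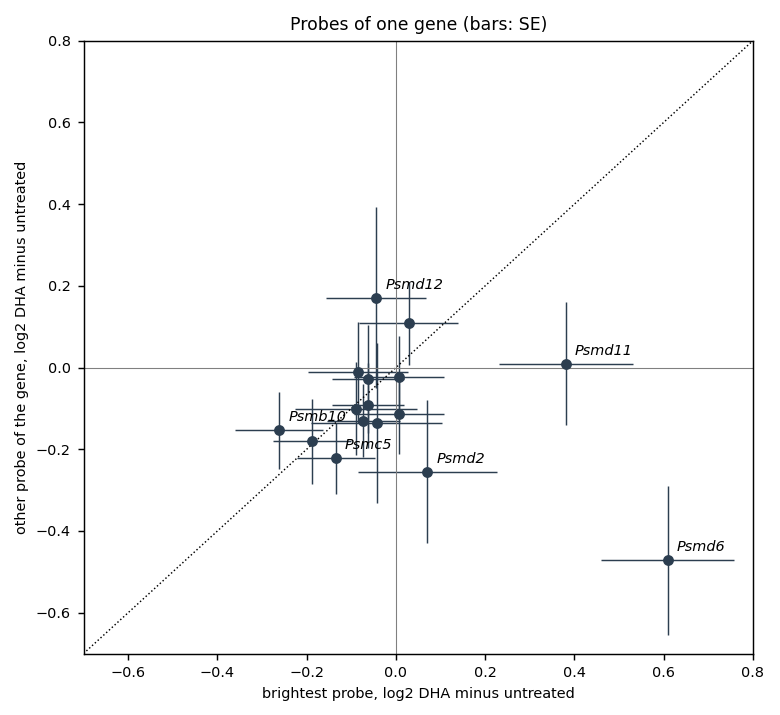
Log2 difference, DHA minus untreated, of the brightest probe (x axis) against each other tested probe of the same gene (y axis) for 14 proteasome genes, with bars for the standard error and a dotted line of equality. Most pairs lie near the line between -0.3 and 0.2, and Psmd6 lies far from it at 0.61 and -0.47.

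The other genes of the ubiquitin pathway did not pass either. Among 5 proteasome partners tested, the deubiquitinase Usp14 had the smallest p (0.23, SE 0.12, limma adjusted p 0.551), and the assembly factor Pomp and the small subunit Sem1 differed by -0.08 and -0.14. Of 7 tested genes of ubiquitin attachment and delivery, 5 were higher and 2 lower, with 2 of the 7 higher at an unadjusted p under 0.05, as were 5.17% of all tested probes. These were the ubiquitin ligases Ube3a (0.52, SE 0.16, limma adjusted p 0.363) and Ube3c (0.22, SE 0.09, limma adjusted p 0.482). A second probe of Ube3a differed by -0.17. The transcription factors Nfe2l1 and Nfe2l2, which can raise proteasome gene expression, differed by -0.03 and 0.17, with Nfe2l2 detected in 1 of 2 untreated arrays.

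Interferon induces the immune subunits, and a list of interferon-response genes was set beside them. It had 12 of 13 tested members higher with DHA and a median of 0.27 log2, none past the test (smallest limma adjusted p 0.268). The mean of the list was 7.94 and 8.07 log2 in the untreated arrays and 8.16 to 9.005 with DHA, so the groups did not overlap, and the highest value was that of DHA replicate 3. Gbp2, a guanylate-binding protein of the interferon gamma response, differed by 0.87 (SE 0.20, limma adjusted p 0.268). In DHA replicate 3, Psmb9 read 6.66, above both untreated values and below DHA replicate 2, and Psmb10 read 10.96, below both untreated values. Ifit1, Iigp1 and Oas1a were not detected.

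Class I presentation genes had 6 of 8 tested members higher with a median of 0.16. Testing required detection in any 2 arrays, and Tap1, counted among the 6, met this through DHA arrays alone. That favours a value above 0 for Tap1. The chaperone Pdia3 differed by 0.24 (SE 0.09, limma adjusted p 0.448) and the light chain B2m by 0.16. Tap2, one chain of the peptide transporter whose genes neighbour Psmb8 and Psmb9, differed by 0.09, and Tap1 was detected in neither untreated array and in 2 of 5 DHA arrays. The class I heavy chain H2-K1 differed by -0.63 (SE 0.25, limma adjusted p 0.462) on a dim probe detected in 4 of 7 arrays.

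Of the marker lists of other cell types, the meningeal list mean was apart between the groups and the other 3 overlapped, and no gene of these lists passed the test. In bulk tissue, fewer cells of a type and less RNA per cell cannot be told apart. All 14 tested meningeal markers were higher with DHA, with list means of 7.26 to 8.12 log2 in the untreated and 8.59 to 9.28 in the DHA arrays, and Col1a2 was not detected. Lymphocyte, border macrophage and MHC class II markers were higher in 9 of 9 tested genes, with list means of 5.65 to 6.05 and 6.02 to 6.75, and Cd3d, Cd4, Cd8a and Ptprc were not detected. Of the genes on the array, 5 of 13 in this list and 11 of 15 in the meningeal list were detected in all 7 arrays. The detection filter can admit a dim gene through DHA arrays alone, which favours a higher value there. Of all tested probes 53% were lower with DHA. Endothelial markers were higher in 6 of 7, with list means of 8.23 to 8.56 and 8.48 to 8.71, and Kdr was not detected. Microglial markers were lower in 8 of 10, with a median of -0.04, list means of 7.86 to 8.03 and 7.85 to 7.98, and Itgam not detected. The part of these lists and of the interferon list in the values of Psmb9, Psmb10 and Psme2 was not tested.

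**Figure D5:**
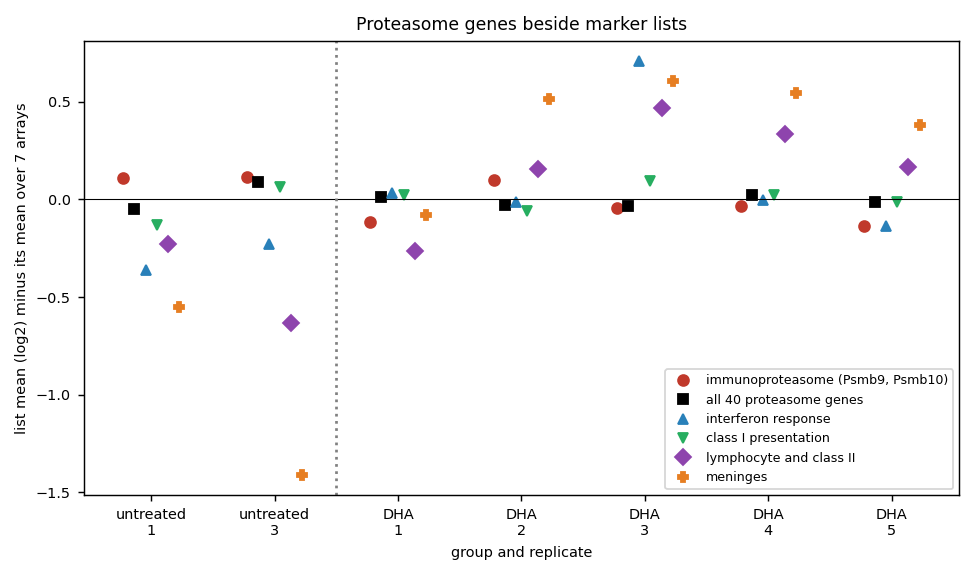
Mean log2 signal of each gene list in each array minus that list's mean over the 7 arrays (y axis), by array (x axis; untreated left of the dotted line). The 40 proteasome genes stay close to 0 in every array, and the meningeal list is lowest in the 2 untreated arrays.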

How the data were processed

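Hypothalamus RNA of 7 samples from male mice was hybridized to Illumina bead arrays. The authors deposited a table without normalization that gives, per the file headers, a detection p-value beside each probe's signal intensity. A further 2 per-sample columns match none of the samples and were left out. The authors' normalized intensity values, also deposited, served as an alternative. They are on a linear scale, and their array medians lay between 174.46 and 175.01. The tools named in the submitters' processing notes are R 2.15.0 and lumi 2.10.0. How they normalized, which slides held which samples and the genome build are not stated there.

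Signals were corrected with normexp (parameters from the detection p-values, offset 16), log2-transformed and quantile-normalized in R 4.3.3 with limma 3.58.1. The offset shrinks differences of dim probes. A probe was tested if 2 or more arrays had a detection p under 0.05 for it, which left 15284 of 25697, and 23978 probes had a gene symbol. The comparison was limma's two-sided moderated test (lmFit, eBayes), and p-values were adjusted by Benjamini-Hochberg over all tested probes. The fit was tested on simulated data. A gene is represented by its brightest tested probe. A list mean is the mean log2 signal of its tested genes.

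The members, the classes and the other gene lists were chosen with earlier results of these data known. The text names the catalytic and immune subunits, the gene with the smallest p in each other class, every subunit probe with an unadjusted p under 0.05, and up to 4 genes of each other list, by smallest p. Psmc3ip stands in that rule's assembly list but is no subunit and was left out of the classes. Pomp, Sem1, Nfe2l1, Tap2 and the marker genes named as detected or undetected are background to the members. The replicate numbers were not used to pair the samples in the main fit. The deviations of same-numbered arrays from their group means correlated by 0.003 and 0.034 over probes. The deviations of the 2 untreated arrays mirror each other, so these values cannot show whether same-numbered samples shared an origin. Psma8, Psmb11, Psmd3, Psmf1 and Psmg4 had no probe under the rule and are not analysed here. The 16 alternatives changed the background correction, scaling, filter, variance model, array weights or block, used the authors' values, or left out 1 array each.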

Additional observations from a re-analysis of the deposited data

Results flagged for a closer look

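Among the 5 DHA arrays, 1 array lay far from the other 4 for 6 subunit probes and 1 list mean, out of 77 sets of values examined. Chance alone flags about 1 in 20 such sets. Psmb4 (ILMN_2671124) read 14.03 log2 in DHA replicate 2, against 13.91 to 13.92 in the others. Psmb1 (ILMN_1239724) read 12.39 in the same array, against 12.60 to 12.69. The dimmer Psma7 probe (ILMN_2793488) read 11.34 in DHA replicate 3, against 11.54 to 11.60. Psmd12 (ILMN_2896805) read 11.53 in DHA replicate 4, against 11.24 to 11.28. In DHA replicate 5, Psmd10 (ILMN_3003308) read 10.71, against 10.90 to 10.97, and Psmg3 (ILMN_2695599) read 9.59, against 9.23 to 9.33. The interferon-response list mean was 9.005 in DHA replicate 3, against 8.16 to 8.33 in the other DHA arrays.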

How the results depend on the processing

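The number of subunit probes past an adjusted p of 0.05 was 0 under all 16 alternatives. Over all tested probes the count was 12 on the authors' normalized values, 12 without background correction, 1 with normexp and an offset of 50, and 52 when variances were fitted robustly along the intensity, none of them a subunit probe; leaving out 1 array gave 0 to 3. The subunit probes at an unadjusted p under 0.05 numbered 7, 10 with arrays scaled to a common median, 8 with the robust variances, 5 with the stricter detection filter, 6 with the offset of 50, 2 with the replicate number as a block, and 2 to 6 with 1 array left out, where a group left with 1 array was assumed to vary like the other. The median subunit difference was -0.10 with arrays scaled to a common median, which moved the median of all probes by less than 0.1, and -0.0889 to -0.0211 with 1 array left out, the ends being without untreated replicate 1 and 3. The replicate block leaves 1 residual degree of freedom and gave a median of -0.08, with 27 of 40 genes lower, and a smallest subunit adjusted p of 0.623. Of 238 values of the 15 named probes under the alternatives, 235 kept their direction. The other 3 came from leaving out 1 array: Psmb5 ranged from -0.41 to 1.36 over those fits, Psmd1 from -0.25 to 0.00472 (without untreated replicate 3), and Psmb9 from -0.0986 to 0.0108 (without DHA replicate 5). Without the detection filter Psmb8 differed by -0.25 (SE 0.17, limma adjusted p 0.737). The causes were not tested. Dim probes, such as those of Psmb8 and Psmc6, lie near the negative controls. The Psmc6 difference was -0.41 in the main fit and -0.11 without background correction.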
